A study of Caenorhabditis elegans with 8 samples.

Results

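RNA from whole nematodes fed a lin-32 RNAi plasmid was compared, gene by gene, with RNA from nematodes fed the empty feeding plasmid L4440. The comparison rests on 5 of the 8 libraries of the study, 3 labelled lin-32 RNAi and 2 labelled L4440, and covers the 14272 of 46748 counted genes that passed a filter on low counts. All animals were Caenorhabditis elegans of the wild-type strain N2, with no transgene or mutation named in any group. The other 3 libraries, labelled hlh-2 RNAi, entered the same fit and so share in its estimate of spread. Below they are compared directly with the libraries labelled lin-32 RNAi and, for some genes, set against the same L4440 libraries. The sources used here state neither the stage or age of the animals nor whether replicates were separate cultures, so p-values stand for the spread among these libraries and that spread may be technical. Feeding RNAi lowers a transcript in the animals that eat the bacteria, acts unevenly between tissues and is known to be weak in neurons of wild-type worms. Going by the series title, the aim was to profile gene expression genome-wide once either factor had been impaired.

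LIN-32 belongs to the Atonal family of proneural transcription factors, which bind DNA through a basic helix-loop-helix (bHLH) domain. Proneural factors make precursor cells enter the neural fate, and lin-32 is best known for touch receptor neurons and other sensory neurons and for the sensory rays of the male tail. It acts together with HLH-2, the worm's E protein, which many bHLH factors share as a partner. Downstream of proneural factors stand transcription factors that fix the identity of single neuron classes, and below these the genes for cilia, channels, synapses and transmitters that a mature neuron uses.

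Libraries labelled lin-32 RNAi held 28979768, 34814808 and 30439740 counts, and those labelled L4440 held 22380739 and 27737470. A level in CPM is a count divided by the library total after scaling by the trimmed mean of M-values, and 1 CPM stood for 22.1 to 35.4 counts in a library. Differences are log2 fold changes of lin-32 RNAi over L4440 with their standard error (SE), so negative values mean lower in lin-32 RNAi. A gene is said to have risen or fallen where its p-value from edgeR's quasi-likelihood test, adjusted over all 14272 genes by the Benjamini-Hochberg method, was under 0.05.

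The targeted transcripts were examined first. Transcripts of lin-32 itself (gene WBGene00003018 at 2229055 to 2230122 on the minus strand of chromosome X, build WBcel235) stood at 0.976, 0.678 and 0.764 CPM in the libraries labelled lin-32 RNAi, against 1.5 and 1.42 CPM in L4440. These were 28, 24 and 23 counts against 33 and 39 counts, so the gene was near the lower end of what could be measured. All 3 RNAi libraries lay below both controls, but the log2 fold change of -0.86 ± 0.29 (SE) did not pass the test (edgeR adjusted p = 0.233). The transcript of its partner hlh-2 (WBGene00001949, chromosome I, 7190788 to 7193920, minus strand) had 23, 27.8 and 15.6 CPM in the libraries labelled lin-32 RNAi, against 50.6 and 49 CPM in L4440. It fell by 1.16 ± 0.15 on the log2 scale (SE, edgeR adjusted p = 0.0041), and that call was lost without L4440 replicate 2 (edgeR adjusted p = 0.068). Libraries labelled hlh-2 RNAi held this transcript at 49, 48.9 and 53.9 CPM, at the level of the controls. Their lin-32 transcript stood at 2.41, 3.4 and 2.06 CPM, above every library of both other groups. The labels of both RNAi groups are therefore used below as labels only. These are bulk RNA samples of whole animals, in which fewer cells of a type and less RNA per cell cannot be told apart.

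In the libraries labelled lin-32 RNAi, 106 of the 14272 genes passed the test (0.743%). Of these, 76 fell (0.533%) and 30 rose (0.21%), and the libraries of both groups did not overlap for any of the 106, as was so for 29.8% of all tested genes. The falls were larger: the median log2 fold change was -1.11 among the genes that fell and 0.60 among those that rose. A change of more than 2-fold was seen for 43 genes that fell (0.301%) and for 4 that rose (0.028%). The genes that fell were also scarcer, with a median of 2.03 CPM in lin-32 RNAi and 5.48 CPM in L4440, whereas those that rose had medians of 64.9 CPM in lin-32 RNAi and 54 CPM in L4440. Of the falls, 25 had a mean under 2 CPM in L4440, and each of these exceeded 2-fold. Precision differed with level, and the median SE was 0.397 among genes under 1 CPM and 0.0395 among genes of at least 100 CPM. At an unadjusted p under 0.05, 974 genes were lower (6.82%) and 823 were higher (5.77%). With library size alone 73 genes fell and 36 rose, and the 106 genes kept their signs. The median log2 fold change of all genes, which the main scaling itself brings near 0, was 0.001 with that scaling and 0.015 with library size alone. The number of calls did rest on single controls: 41 genes passed without L4440 replicate 1 and 17 without L4440 replicate 2. It was 67 without hlh-2 RNAi replicate 2, and 60 and 61 without lin-32 RNAi replicates 2 and 3. A set of 14 genes stayed past the threshold whichever of the 8 libraries was left out, and was listed after its values were seen. Of these, sqt-1, col-17, egl-46, arrd-1, F48E3.6, fmi-1, argk-1, F21C10.9, F48E3.2, cth-1 and the pseudogene WBGene00010240 were lower, and cpr-4, sec-61.B and ugt-63 were higher. In lin-32 RNAi, sqt-1 had 4, 1 and 0 counts, col-17 7, 5 and 2, and WBGene00010240 1, 1 and 4. These scarce genes entered the test only through libraries where they are higher. Their place in the set is a description and not support for a direction.

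**Figure D1:**
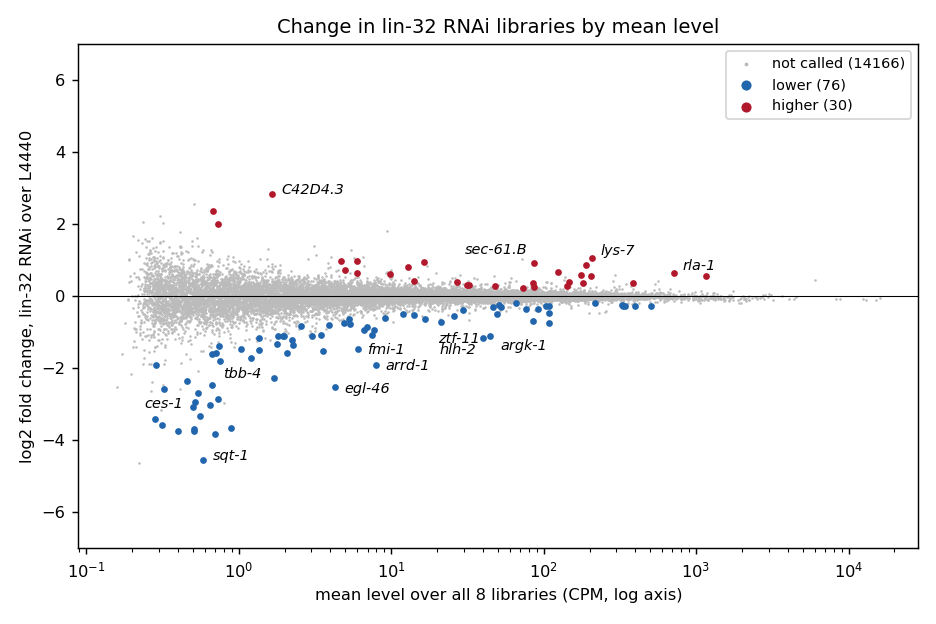
Each point is 1 of the 14272 tested genes, with its mean CPM over all 8 libraries on a log axis and its log2 fold change of lin-32 RNAi over L4440 on the other, and genes past the test are coloured by direction. The 76 genes that fell lie mostly at low levels, down to a log2 fold change of -4.55 for sqt-1, and the 30 that rose lie mostly at higher levels with smaller changes.

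**Figure D2:**
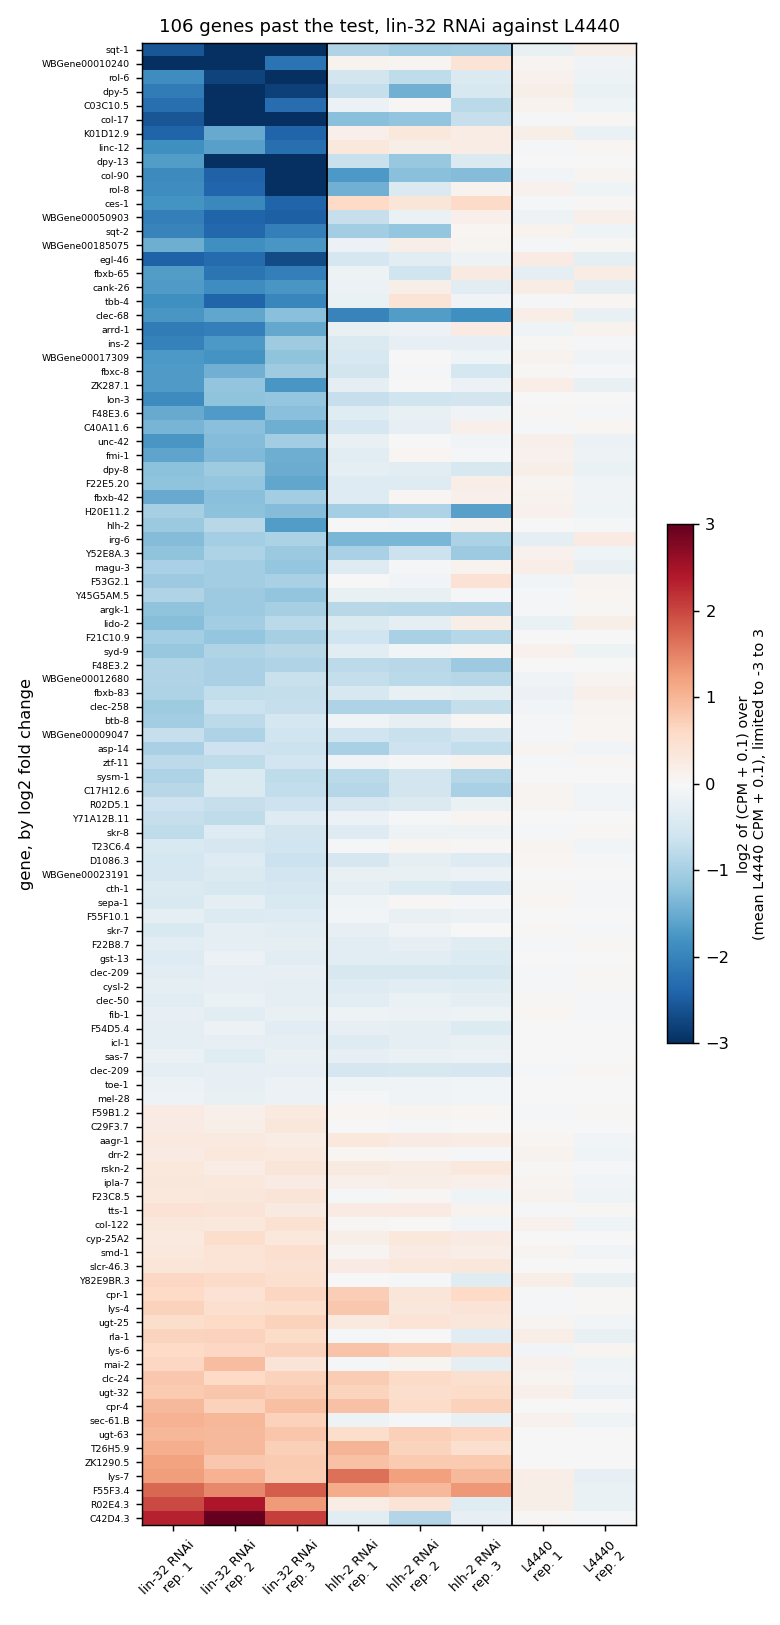
Rows are the 106 genes past the test in order of log2 fold change and columns are the 8 libraries, lin-32 RNAi, hlh-2 RNAi and then L4440; colour is the log2 of CPM (plus 0.1) over the mean of the L4440 libraries (plus 0.1), limited to -3 and 3. Replicates within a group show like colours, and the libraries labelled hlh-2 RNAi follow those labelled lin-32 RNAi in some rows and the controls in others.

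Falls among transcription factor genes that act in neurons included egl-46, syd-9 and unc-42 of the neuron identity list described below, ces-1 of the apoptosis list and ztf-11, which is in no list. The zinc finger gene egl-46 (WBGene00001210, chromosome V, 6679123 to 6681573, minus strand), which acts in the differentiation of FLP and HSN neurons and in the exit of neuronal precursors from the cell cycle, had 1.22, 1.33 and 0.996 CPM in the libraries labelled lin-32 RNAi, against 8.25 and 5.70 CPM in L4440. All 3 lin-32 RNAi libraries were far below both controls, and the difference was -2.54 ± 0.20 (log2 fold change and SE, edgeR adjusted p = 0.000114). Its known partner, the TEAD-family gene egl-44, had 16.6, 16.7 and 14.8 CPM in lin-32 RNAi and 15.6 and 17.4 CPM in L4440, with overlapping libraries (log2 fold change -0.044 ± 0.088, SE), and was chosen after its values were seen. The gene ztf-11, named after its values were seen, encodes a MYT1-family zinc finger protein that represses genes of other fates in developing neurons. It had 14.4, 14.8 and 16.9 CPM in lin-32 RNAi, against 24.3 and 25.9 CPM in L4440. The groups were well apart for ztf-11, which fell by 0.71 ± 0.085 (log2 scale, SE, edgeR adjusted p = 0.0019). The gene syd-9, whose zinc finger protein is needed for synaptic function, had 4.39, 5.2 and 5.41 CPM in lin-32 RNAi and 10.7 and 8.79 CPM in L4440, and fell by 0.95 ± 0.14 (log2 scale, SE, edgeR adjusted p = 0.00911).

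The other regulators that fell were scarce, and ces-1 could enter the test only through libraries where it is higher. The homeobox gene unc-42, an identity factor of command interneurons and some sensory neurons, had 0.349, 0.508 and 0.631 CPM in lin-32 RNAi and 1.59 and 1.23 CPM in L4440, giving -1.48 ± 0.28 (log2 fold change and SE, edgeR adjusted p = 0.0296). The Snail-family gene ces-1, which decides whether sisters of pharyngeal NSM neurons die, had 3, 3 and 1 counts in the libraries labelled lin-32 RNAi, against 13 and 17 counts in L4440. This put ces-1 at 0.105, 0.0847 and 0.0332 CPM in lin-32 RNAi and at 0.590 and 0.617 CPM in L4440, with no overlap (log2 fold change -2.96 ± 0.45, SE, edgeR adjusted p = 0.0102). Exons of ces-1 overlap cpn-1 on the other strand, and the library kit did not mark strand. Such overlap was found for 16 of the 106 called genes, among them col-90, dpy-8, ugt-25, rla-1 and Y82E9BR.3, described below. Calls in this group that were lost without 1 library were those of unc-42, syd-9 and ces-1 without L4440 replicate 1 (edgeR adjusted p 0.065 to 0.24), and of unc-42, ces-1 and ztf-11 without L4440 replicate 2 (edgeR adjusted p 0.068 to 0.12). The call of unc-42 was also lost without hlh-2 RNAi replicate 2 (edgeR adjusted p = 0.058), without lin-32 RNAi replicate 1 (edgeR adjusted p = 0.079) and without lin-32 RNAi replicate 2 (edgeR adjusted p = 0.087), and that of egl-46 was kept with each of the 8 libraries left out.

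**Figure D3:**
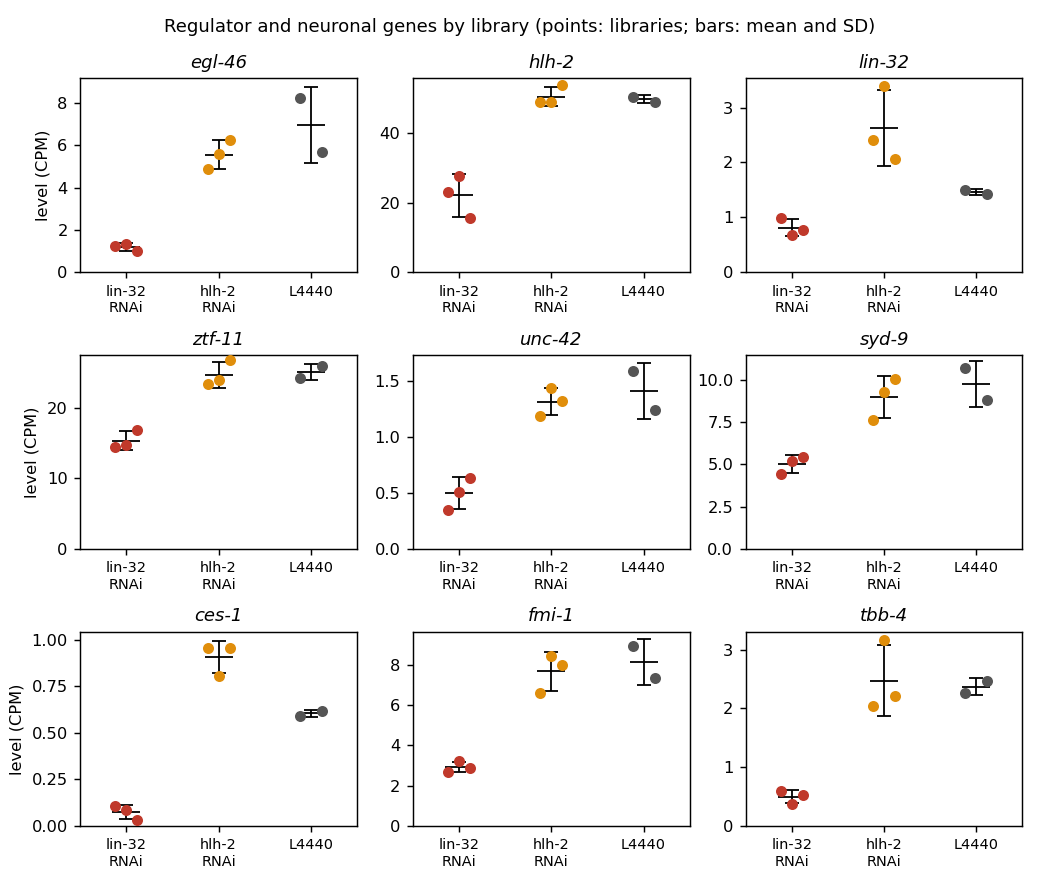
Each panel shows the CPM of 1 gene from 0 upward in every library, with points for libraries, a bar for the group mean and whiskers for its SD (n = 3, 3 and 2 for lin-32 RNAi, hlh-2 RNAi and L4440). In all 9 panels the lin-32 RNAi points lie below both other groups, with egl-46 at 0.996 to 1.33 CPM in lin-32 RNAi and 5.70 to 8.25 CPM in L4440.

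Of 50 neuron identity transcription factor genes, 43 were tested and 3 fell (egl-46, unc-42 and syd-9), with none higher. These were 6.98% of the 43, against 0.533% of all genes. Below 0 stood 36 of the 43, against 49.4% of all tested genes, and the median log2 fold change was -0.18. Leaving out L4440 replicate 2 gave a median of -0.34, and leaving out L4440 replicate 1 gave -0.13. The number that fell was 1 without L4440 replicate 1, 2 without L4440 replicate 2, hlh-2 RNAi replicate 2 or lin-32 RNAi replicate 1, and 6 without hlh-2 RNAi replicate 1. In 15 of the 43 (34.9%) all lin-32 RNAi libraries were lower than both controls, against 15.4% of all genes. Among members that did not pass, ast-1 and zag-1 came near the threshold and unc-86 did not. The ETS-family gene ast-1, a factor of dopamine neurons, had 0.907, 0.734 and 0.896 CPM in lin-32 RNAi and 2.40 and 1.56 CPM in L4440 (log2 fold change -1.21 ± 0.26, SE, edgeR adjusted p = 0.0552). The ZEB-family gene zag-1 had 1.60, 2.49 and 1.73 CPM in lin-32 RNAi and 4.04 and 3.67 CPM in L4440 (log2 fold change -0.97 ± 0.21, SE, edgeR adjusted p = 0.0605). The POU homeobox gene unc-86, a factor of touch receptor and other neurons, had 0.872, 1.02 and 0.631 CPM in lin-32 RNAi and 1.5 and 1.34 CPM in L4440 (log2 fold change -0.74 ± 0.24, SE, edgeR adjusted p = 0.215). Its partner in touch neurons, the LIM homeobox gene mec-3, overlapped between groups at a log2 fold change of 0.12 ± 0.36 (SE). The last 4 genes were chosen after their values were seen. Of 63 homeobox ceh genes, 49 were tested, 40 stood below 0 with a median of -0.15, and none passed; the Distal-less gene ceh-43 came nearest (-0.72 ± 0.17, log2 fold change and SE, edgeR adjusted p = 0.0795). Of 17 proneural bHLH and E protein genes 8 were tested, and hlh-2 was the only one that passed, beside a median of -0.53, which was -0.23 over 10 tested genes without L4440 replicate 1. Scarce members of the lists in this paragraph could enter the test through the libraries where they are higher. Their counts and medians are therefore a description and not support for a direction.

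The lists of axon guidance, cilium and neuropeptide genes each held 1 fall, and the calls of arrd-1 and F48E3.6, of less clear role, were kept with each library left out. The gene fmi-1 (WBGene00001475, chromosome V, 13019061 to 13033401, plus strand) encodes Flamingo, an atypical cadherin of axon guidance and planar polarity, and had 2.69, 3.22 and 2.89 CPM in lin-32 RNAi, against 8.98 and 7.37 CPM in L4440. It fell by 1.47 ± 0.15 (log2 scale, SE, edgeR adjusted p = 0.000662), and no other of 46 tested genes of axon guidance, Wnt signalling and planar polarity did (median -0.019). The beta-tubulin gene tbb-4 (chromosome X, 9434452 to 9436893, minus strand), used in sensory cilia, had 0.593, 0.367 and 0.531 CPM in lin-32 RNAi, against 2.27 and 2.47 CPM in L4440. These are 17, 13 and 16 counts against 50 and 68 counts, with no overlap, and tbb-4 fell by 2.27 ± 0.28 (log2 scale, SE, edgeR adjusted p = 0.00205). For arrd-1, which encodes an arrestin domain protein, the values were 2.55, 2.63 and 3.82 CPM in lin-32 RNAi and 10.3 and 12.1 CPM in L4440, giving -1.91 ± 0.18 (log2 fold change and SE, edgeR adjusted p = 0.000634). The gene F48E3.6 (chromosome X, 7501415 to 7502907, minus strand) fell by 1.53 ± 0.16 (log2 scale, SE, edgeR adjusted p = 0.000936).

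The insulin-like peptide gene ins-2 had 0.209, 0.282 and 0.498 CPM in lin-32 RNAi and 1.18 and 1.13 CPM in L4440, and fell by 1.79 ± 0.32 (log2 scale, SE, edgeR adjusted p = 0.0257). It was the only 1 of 113 tested neuropeptide genes to pass, and the list's median was 0.089. The membrane-associated guanylate kinase gene magu-3, named after its values were seen, fell by 1.11 ± 0.22 (log2 scale, SE, edgeR adjusted p = 0.0446), and its exons overlap those of C50F2.7 on the same strand. The calls of ins-2 and magu-3 were both lost without L4440 replicate 1 (edgeR adjusted p 0.17 to 0.31), without hlh-2 RNAi replicate 2 (edgeR adjusted p 0.053 to 0.079), without lin-32 RNAi replicate 1 (edgeR adjusted p 0.073 to 0.087) and without lin-32 RNAi replicate 2 (edgeR adjusted p 0.089 to 0.11). Without L4440 replicate 2 the calls of tbb-4, ins-2 and magu-3 were lost (edgeR adjusted p 0.066 to 0.19), and without lin-32 RNAi replicate 3 that of magu-3 (edgeR adjusted p = 0.12).

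Genes of sensory cilia and intraflagellar transport, the machinery that builds cilia on sensory dendrites, were mostly lower without passing the test. Of 68 such genes 57 were tested, tbb-4 alone fell, 48 stood below 0 (against 49.4% of all genes) and the median log2 fold change was -0.42. With the filter of 1 CPM in 2 libraries 22 of them were tested and the median was -0.19. In 28 of the 57 (49.1%, against 15.4% of all genes) every lin-32 RNAi library was below both controls, and 19 were lower at an unadjusted p under 0.05, against 6.82% of all genes. Many are scarce and could enter the test through the libraries where they are higher, so these counts are a description and not support for a direction. Those next in order of p included the transition zone genes mks-3 (-1.89 ± 0.44, log2 fold change and SE, edgeR adjusted p = 0.0767), nphp-1 (-1.53 ± 0.37, edgeR adjusted p = 0.0884) and jbts-14 (-2.65 ± 0.69, edgeR adjusted p = 0.113). Counts of these genes were small: nphp-1 had 0.384, 0.395 and 0.199 CPM in lin-32 RNAi and 1.27 and 0.690 CPM in L4440. The dendrite anchoring gene dyf-7 had 1.01, 1.5 and 1.26 CPM in lin-32 RNAi and 3.13 and 1.89 CPM in L4440 (-0.96 ± 0.26, log2 fold change and SE, edgeR adjusted p = 0.13). The kinesin-II subunit gene klp-11 was measured more precisely, with 5.02, 5.11 and 4.68 CPM in lin-32 RNAi and 6.44 and 6.21 CPM in L4440 (-0.35 ± 0.11, log2 fold change and SE, edgeR adjusted p = 0.189). Apart from tbb-4, the cilium genes named here were chosen after their values were seen. The summed level of the list was 267 to 273 CPM in lin-32 RNAi, 282 to 294 CPM in hlh-2 RNAi and 283 to 285 CPM in L4440.

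The lists of neuronal effector genes that follow had medians nearer 0, and their difference from the cilium list was not tested. None of 13 tested touch receptor effector genes passed (median -0.069), among them the tubulin genes mec-7 (-0.23 ± 0.14, log2 fold change and SE) and mec-12 (-0.089 ± 0.11), both chosen after their values were seen. The stomatin-like channel gene mec-2 had 1.39, 1.33 and 1.29 CPM in lin-32 RNAi and 2.40 and 1.38 CPM in L4440, with overlapping libraries. None of 35 pan-neuronal and synaptic genes passed (median -0.02), and their summed level was 1170 to 1200 CPM in lin-32 RNAi and 1170 to 1180 CPM in L4440. The pan-neuronal gene unc-119 had 19.3, 19.7 and 19.1 CPM in lin-32 RNAi and 20 and 19.2 CPM in L4440, and rab-3 had 3.87, 4.58 and 4.55 CPM in lin-32 RNAi and 5.08 and 4.39 CPM in L4440. Nor did any of 9 monoamine genes, 14 genes of acetylcholine, GABA and glutamate neurons, 16 receptor guanylate cyclase genes or 9 glia genes pass. Of 1309 chemoreceptor genes only 54 were abundant enough to test, and none passed. The 7 genes of male ray and CEM neurons were too scarce to test.

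Cuticle collagen genes with body shape phenotypes made up the largest group of falls within a list. Of 20 such dpy, sqt, rol, lon and bli genes, 18 were tested, 8 fell (44.4%, against 0.533% of all genes) and none rose. All 18 stood below 0, against 49.4% of all genes. Their median was -1.22, or -0.48 over the 14 tested with the filter of 1 CPM in 2 libraries. The gene sqt-1 (chromosome II, 11336693 to 11337837, minus strand), a collagen whose mutants are squat or roll, had 4, 1 and 0 counts in the libraries labelled lin-32 RNAi, against 25 and 42 counts in L4440. The difference for sqt-1 was -4.55 ± 0.52 (log2 fold change and SE, edgeR adjusted p = 0.0014). The roller collagen rol-6 had 4, 1 and 0 counts in lin-32 RNAi and 19 and 19 counts in L4440 (-3.75 ± 0.59, log2 fold change and SE, edgeR adjusted p = 0.0122). All libraries of lin-32 RNAi were close to 0 for both genes, below either control. The dumpy collagen dpy-5 had 5, 0 and 2 counts in lin-32 RNAi and 27 and 25 counts in L4440 (-3.75 ± 0.61, log2 fold change and SE, edgeR adjusted p = 0.0137). Its fellow dpy-13 had 8, 1 and 1 counts in lin-32 RNAi and 24 and 31 counts in L4440 (-3.33 ± 0.55, edgeR adjusted p = 0.0161). These 4 collagens stood at 0.69 to 1.52 CPM in the controls. Falls were also called for sqt-2 (-2.70 ± 0.50), rol-8 (-3.02 ± 0.58), lon-3 (-1.57 ± 0.29) and dpy-8 (-1.40 ± 0.28, log2 fold changes and SE), of which sqt-2, lon-3 and dpy-8 were chosen after their values were seen.

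The more abundant collagens of the same list did not pass. The summed level of the list was 100 to 157 CPM in lin-32 RNAi, 108 to 160 CPM in hlh-2 RNAi and 127 to 179 CPM in L4440. The gene dpy-17 had 25.7, 39.2 and 35.3 CPM in lin-32 RNAi and 45.1 and 31.7 CPM in L4440, and dpy-14 had 29.3, 48.3 and 40.1 CPM in lin-32 RNAi and 50.8 and 36.3 CPM in L4440. Libraries overlapped for both, and the log2 fold changes were -0.19 ± 0.21 and -0.14 ± 0.20 (SE). For sqt-3 the value was -0.023 ± 0.23 and for dpy-7, an epidermal marker, -0.49 ± 0.25 (log2 fold change and SE). These 4 were chosen after their values were seen. Within lin-32 RNAi, replicate 1 was the lowest for dpy-17, dpy-14 and dpy-7 and the highest for sqt-1, rol-6 and dpy-5. The genes that fell are the scarce ones. All of them but lon-3 and dpy-8 could enter the test only through libraries where they are higher. The number of falls is therefore a description and not support for a direction.

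The numbered col genes, other cuticle collagens, showed no common direction: of 156, 89 were tested, 2 fell, 1 rose and the median was 0.034. The share that passed was 3.37%, against 0.743% of all genes. The gene col-17 (chromosome II, 4866436 to 4867576, minus strand) had 7, 5 and 2 counts in lin-32 RNAi and 42 and 55 counts in L4440 (-3.68 ± 0.36, log2 fold change and SE, edgeR adjusted p = 0.000634). The gene col-90 fell by 3.09 ± 0.43 (log2 scale, SE, edgeR adjusted p = 0.00539), and col-122 rose to 437, 435 and 475 CPM in lin-32 RNAi, against 379 and 317 CPM in L4440 (0.37 ± 0.067, log2 fold change and SE, edgeR adjusted p = 0.0266). None of 33 moulting, 57 hedgehog- and patched-related or 31 apical matrix genes passed. Over these lists only sqt-1 and col-17 kept their calls with each library left out, and both entered the test only through libraries where they are higher. Without L4440 replicate 1 or L4440 replicate 2, 1 of the 8 body shape falls remained called. Without hlh-2 RNAi replicate 2 it was 5 of the 8, and without lin-32 RNAi replicates 1, 2 and 3 it was 5, 2 and 2 (edgeR adjusted p of those lost 0.056 to 0.31). The call of dpy-8 was lost without hlh-2 RNAi replicate 3 (edgeR adjusted p = 0.055). That of col-90 was lost without L4440 replicate 2, and that of col-122 without L4440 replicate 2, hlh-2 RNAi replicate 2, lin-32 RNAi replicate 2 or lin-32 RNAi replicate 3 (lowest edgeR adjusted p 0.056).

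**Figure D4:**
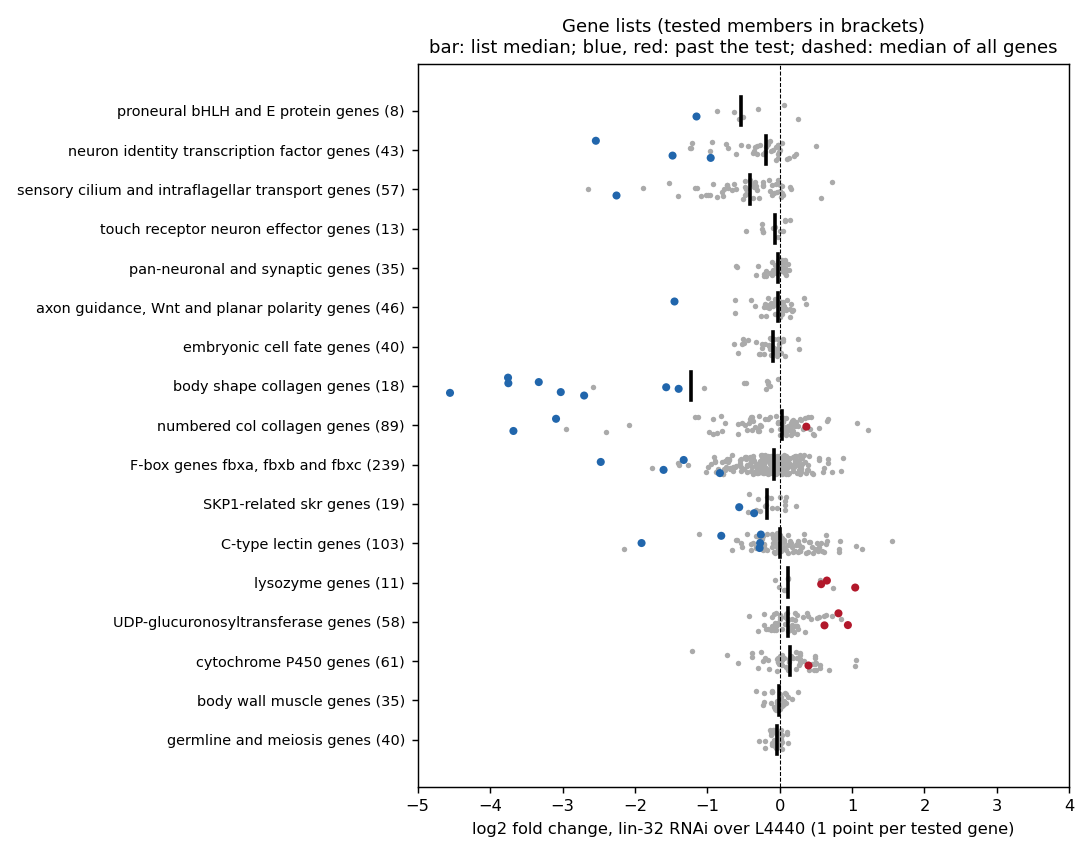
Each point is a tested gene's log2 fold change of lin-32 RNAi over L4440 in 1 of 17 gene lists, coloured where it passed the test, with a bar at the list median and a dashed line at the median of all genes. The body shape collagens have a median of -1.22 and the cilium genes of -0.42, while pan-neuronal genes, col genes, muscle genes and germline genes are centred within 0.05 of 0.

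Among genes for parts of ubiquitin ligases, falls were called in the F-box, skr and BTB lists. F-box proteins pick substrates, SKP1-related proteins join them to the cullin, and BTB proteins serve another cullin. Of 322 F-box genes 239 were tested, 4 fell (1.67%, against 0.533% of all genes), none rose, and the median was -0.084. The gene fbxb-42 had 0.767, 0.932 and 1.10 CPM in lin-32 RNAi and 2.54 and 2.18 CPM in L4440 (-1.33 ± 0.23, log2 fold change and SE, edgeR adjusted p = 0.021). The gene fbxb-65 fell by 2.47 ± 0.42, fbxc-8 by 1.60 ± 0.33 and fbxb-83 by 0.83 ± 0.17 (log2, SE), and exons of fbxb-83 overlap those of T17A3.12 on the same strand. Of 19 tested skr genes 2 fell (10.5%, against 0.533% of all genes). In 11 of the 19 (57.9%, against 15.4% of all genes) every lin-32 RNAi library was below both controls. The gene skr-7 had 63.2, 71.6 and 68.8 CPM in lin-32 RNAi and 89.4 and 84.3 CPM in L4440 (-0.35 ± 0.065, log2 fold change and SE, edgeR adjusted p = 0.0295), and skr-8 fell by 0.56 ± 0.10 (log2 scale, SE, edgeR adjusted p = 0.0263). The related skr-9 had 17.3, 19.7 and 18.5 CPM in lin-32 RNAi and 25.5 and 24.1 CPM in L4440 but missed the threshold (edgeR adjusted p = 0.0624), and was chosen after its values were seen. The skr genes are similar in sequence, and the sources used here do not say how reads shared between copies were counted. Of 69 tested BTB and MATH genes, btb-8 alone fell (1.45%, against 0.533% of all genes). Its difference was -0.79 ± 0.15 (log2 fold change and SE, edgeR adjusted p = 0.0385).

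All 7 of these calls were lost without L4440 replicate 1 (edgeR adjusted p 0.051 to 0.25) and without L4440 replicate 2 (edgeR adjusted p 0.12 to 0.43). Without lin-32 RNAi replicate 1, replicate 2 or replicate 3, 6, 5 and 5 of the 7 were lost, without hlh-2 RNAi replicate 2 fbxc-8, fbxb-83, skr-7 and btb-8 (edgeR adjusted p 0.058 to 0.08), and without hlh-2 RNAi replicate 3 fbxc-8 and fbxb-83 (edgeR adjusted p 0.052 to 0.056).

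C-type lectin genes, many of which respond to bacteria, had 5 falls among 103 tested of 240 (4.85%, against 0.533% of all genes) and a median of 0.004. Among these were 2 IDs that share the symbol clec-209. The first, WBGene00018910, had 316, 335 and 334 CPM in lin-32 RNAi, against 386 and 410 CPM in L4440. The other, WBGene00021224, had 322, 333 and 334 CPM in lin-32 RNAi, against 385 and 404 CPM in L4440. They fell by 0.28 ± 0.039 and 0.26 ± 0.035 (log2 scale, SE, edgeR adjusted p 0.00584 and 0.00506). With near-equal counts under 1 symbol, the copy a read belongs to cannot be told, so these values are uncertain as 2 genes. The gene clec-50 had 365, 398 and 374 CPM in lin-32 RNAi and 468 and 446 CPM in L4440 (-0.27 ± 0.047, log2 fold change and SE, edgeR adjusted p = 0.0209). Falls were also called for clec-258 (-0.81 ± 0.15, log2 fold change and SE, edgeR adjusted p = 0.0303) and, chosen after its values were seen, clec-68 (-1.91 ± 0.38, edgeR adjusted p = 0.0446). Without L4440 replicate 2 all 5 calls were lost (edgeR adjusted p 0.11 to 0.28). Those of clec-50, clec-258 and clec-68 were lost without L4440 replicate 1, lin-32 RNAi replicate 1 or lin-32 RNAi replicate 3, those of clec-258 and clec-68 without hlh-2 RNAi replicate 2 or lin-32 RNAi replicate 2, and that of clec-68 without hlh-2 RNAi replicate 3 (edgeR adjusted p 0.054 to 0.31 over these).

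Among metabolic genes, argk-1 (WBGene00009706, chromosome V, 16103894 to 16105952, plus strand) had the smallest p of the whole comparison. It encodes an arginine kinase, an enzyme that stores phosphate energy, and had 30.2, 33.2 and 35.3 CPM in lin-32 RNAi, against 68.7 and 72.0 CPM in L4440. The groups were far apart beside a small spread, and argk-1 fell by 1.10 ± 0.059 (log2 scale, SE, edgeR adjusted p = 2.68e-06). The cystathionine gamma-lyase gene cth-1, an enzyme of cysteine synthesis, had 99.1, 96.5 and 94.0 CPM in lin-32 RNAi and 137 and 131 CPM in L4440 (-0.47 ± 0.054, log2 fold change and SE, edgeR adjusted p = 0.00141). The cysteine synthase-like gene cysl-2, whose exons overlap vnut-1 on the other strand, fell by 0.27 ± 0.037 (log2 scale, SE, edgeR adjusted p = 0.00506). These were the only 2 of 24 tested transsulfuration and cysteine genes to pass (8.33%, against 0.743% of all genes), beside a median of -0.017. The aspartyl protease gene asp-14 had 78.7, 102 and 98.8 CPM in lin-32 RNAi and 163 and 147 CPM in L4440 (-0.74 ± 0.11, log2 fold change and SE, edgeR adjusted p = 0.00655), and no other of 11 aspartyl protease genes passed.

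Smaller falls were called for the glyoxylate cycle gene icl-1, at 327, 330 and 322 CPM in lin-32 RNAi and 389 and 395 CPM in L4440 (-0.26 ± 0.044, log2 fold change and SE, edgeR adjusted p = 0.0163), and for gst-13, 1 of 37 tested glutathione S-transferase genes (-0.30 ± 0.059, edgeR adjusted p = 0.0413). F21C10.9 had 5.72, 5.14 and 5.74 CPM in lin-32 RNAi, against 11.5 and 11.7 CPM in L4440, and F48E3.2 had 5.48, 5.2 and 5.48 CPM in lin-32 RNAi, against 10.4 and 10.2 CPM in L4440. These uncharacterised genes fell by 1.07 ± 0.12 and 0.94 ± 0.11 (log2 scale, SE, edgeR adjusted p 0.00125 and 0.00179), and exons of each overlap a gene on the other strand. The nucleolar fibrillarin gene fib-1, chosen after its values were seen, had 476, 451 and 481 CPM in lin-32 RNAi and 589 and 543 CPM in L4440 (-0.27, log2 fold change, edgeR adjusted p = 0.0124). Calls lost were those of asp-14, gst-13 and icl-1 without L4440 replicate 1 (edgeR adjusted p 0.11 to 0.24), of cysl-2, asp-14, gst-13 and icl-1 without L4440 replicate 2 (edgeR adjusted p 0.066 to 0.24), of gst-13 without hlh-2 RNAi replicate 2 (edgeR adjusted p = 0.074) or lin-32 RNAi replicate 1 (edgeR adjusted p = 0.11), and of gst-13 and icl-1 without lin-32 RNAi replicate 3 (edgeR adjusted p 0.059 to 0.11).

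The 30 genes that rose included members of the lysozyme, cathepsin B-like, UDP-glucuronosyltransferase and cytochrome P450 lists. Of 16 lysozyme genes, whose products break bacterial cell walls, 11 were tested and 3 rose (27.3%, against 0.21% of all genes). The gene lys-7 had 7297, 7717 and 5416 counts in lin-32 RNAi, against 2688 and 2472 counts in the smaller L4440 libraries, and rose by 1.04 ± 0.19 (log2 scale, SE, edgeR adjusted p = 0.0251). The gene lys-4 had 211, 182 and 188 CPM in lin-32 RNAi and 126 and 134 CPM in L4440 (0.57 ± 0.11, log2 fold change and SE, edgeR adjusted p = 0.0388), and lys-6 rose by 0.65 ± 0.13 (log2 scale, SE, edgeR adjusted p = 0.0385). Every lin-32 RNAi library exceeded both controls for these and for 6 of the 11 in all (54.5%, against 14.4% of all genes), while lys-1 and lys-2, chosen after their values were seen, overlapped between groups. The median of the 11 was 0.12, or 0.53 without L4440 replicate 1. None of 44 tested saposin-like and antimicrobial peptide genes passed (median -0.038). Of 10 tested cathepsin B-like and related protease genes, cpr-4 and cpr-1 rose (20%, against 0.21% of all genes). The gene cpr-4 had 6960, 7034 and 6921 counts in lin-32 RNAi and 2701 and 3394 counts in L4440 (0.86 ± 0.092, log2 fold change and SE, edgeR adjusted p = 0.000936), and cpr-1 had 227, 203 and 232 CPM in lin-32 RNAi and 146 and 153 CPM in L4440 (0.56 ± 0.087, edgeR adjusted p = 0.0117). Of 34 tested intestine genes these were the only 2 to pass (5.88%, against 0.743% of all genes), and 27 of the 34 stood above 0 with a median of 0.082. Of all tested genes, 49.4% stood below 0.

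UDP-glucuronosyltransferases attach sugar to foreign and internal small molecules. Of 58 tested genes of the family 3 rose (5.17%, against 0.21% of all genes), none fell and 39 stood above 0 (median 0.11). Of all tested genes, 49.4% stood below 0. The gene ugt-63 had 21.2, 21 and 19.2 CPM in lin-32 RNAi and 10.6 and 10.7 CPM in L4440 (0.94 ± 0.085, log2 fold change and SE, edgeR adjusted p = 0.000396), ugt-32 rose by 0.81 ± 0.10 (edgeR adjusted p = 0.00209) and ugt-25 by 0.62 ± 0.095 (log2 scale, SE, edgeR adjusted p = 0.0113). Of 61 tested cytochrome P450 genes, oxidases that act on similar substrates, cyp-25A2 alone rose (0.39 ± 0.075, log2 fold change and SE, edgeR adjusted p = 0.0385), and 44 stood above 0. The polyamine gene smd-1, S-adenosylmethionine decarboxylase, had 156, 166 and 174 CPM in lin-32 RNAi and 133 and 118 CPM in L4440 (0.40 ± 0.063, log2 fold change and SE, edgeR adjusted p = 0.0121). Of the 9 rises in these families, cpr-4 and ugt-63 kept their calls with each library left out. The other 7 lost theirs without L4440 replicate 2 (edgeR adjusted p 0.066 to 0.28), as did smd-1. Of these, lys-7, lys-4, lys-6, cpr-1 and cyp-25A2 lost theirs also without L4440 replicate 1 (edgeR adjusted p 0.067 to 0.28). Removing hlh-2 RNAi replicate 2 or any 1 of the lin-32 RNAi replicates ended 3 or 4 of the calls of the lysozyme genes and cyp-25A2 (edgeR adjusted p 0.053 to 0.1).

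A further group rose without belonging to these families. The Sec61 beta subunit gene sec-61.B (chromosome IV, 2388185 to 2388675, minus strand) encodes part of the channel into the endoplasmic reticulum. It had 3932, 4685 and 3227 counts in lin-32 RNAi, against 1586 and 1659 counts in the smaller L4440 libraries. Scaled for library size, sec-61.B had means of 126 CPM in lin-32 RNAi, 60.4 CPM in hlh-2 RNAi and 66.1 CPM in L4440. It rose by 0.93 ± 0.10 (log2 scale, SE, edgeR adjusted p = 0.00105) and kept its call with each library left out, and no other of 31 tested genes of the translocon, chaperones and folding passed. The ribosomal stalk gene rla-1 had 959, 979 and 890 CPM in lin-32 RNAi and 693 and 523 CPM in L4440 (0.63 ± 0.11, log2 fold change and SE, edgeR adjusted p = 0.0184). It was the only 1 of 80 tested cytosolic ribosomal protein genes to pass, and 60 of the 80 stood below 0, against 49.4% of all genes. The mitochondrial ATPase inhibitor gene mai-2 had 161, 198 and 136 CPM in lin-32 RNAi and 113 and 95 CPM in L4440 (edgeR adjusted p = 0.0439). The ATP synthase subunit c gene Y82E9BR.3 had 1570, 1510 and 1420 CPM in lin-32 RNAi and 1160 and 877 CPM in L4440 (edgeR adjusted p = 0.0492). They rose by 0.67 and 0.56 on the log2 scale, and both were chosen after their values were seen. Exons of rla-1 overlap arl-13 and those of Y82E9BR.3 overlap lelo-2, each on the other strand. None of 41 nuclear respiratory chain genes passed.

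The largest rise was that of C42D4.3 (chromosome IV, 7179239 to 7180484, plus strand), with 86, 199 and 76 counts in lin-32 RNAi and 12 and 14 counts in L4440. The difference was 2.83 ± 0.41 (log2 fold change and SE, edgeR adjusted p = 0.00681), with replicate 2 the highest of the lin-32 RNAi libraries. The scarce genes R02E4.3 and F55F3.4 rose by 2.35 ± 0.47 and 2.0 ± 0.34 (log2 scale, SE, edgeR adjusted p 0.0413 and 0.0163), and ZK1290.5 and T26H5.9 each by 0.96 (log2, edgeR adjusted p 0.0117 and 0.0326). The noncoding RNA tts-1 had 98.7, 96.6 and 87.9 CPM in lin-32 RNAi and 71.2 and 75.7 CPM in L4440 (0.36 ± 0.059, log2 fold change and SE, edgeR adjusted p = 0.0144). Without L4440 replicate 2 the calls of rla-1, mai-2, Y82E9BR.3, C42D4.3, R02E4.3, F55F3.4, ZK1290.5, T26H5.9 and tts-1 were lost (edgeR adjusted p 0.11 to 0.37), and without L4440 replicate 1 those of all of these but rla-1 and Y82E9BR.3 (edgeR adjusted p 0.095 to 0.2). Between 2 and 6 of these 9 calls were lost on leaving out hlh-2 RNAi replicate 2 or any 1 of the lin-32 RNAi replicates (edgeR adjusted p 0.055 to 0.12), and those of C42D4.3 and ZK1290.5 were not among them.

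No defining tissue marker passed the test, but the summed levels of some tissue lists did not overlap between the groups. Of 30 defining markers of neurons, glia, muscle, pharynx, intestine, epidermis, germline, yolk and embryo, all were tested and none passed, with log2 fold changes of -0.58 to 0.31. The body wall myosin gene unc-54 stood at 0.015, the intestinal regulator elt-2 at 0.021 and the synaptobrevin gene snb-1 at 0.054 (log2 fold change). No member passed among 35 muscle, 20 pharynx, 40 germline, 27 oocyte, 17 sperm, 28 maternal or 6 vitellogenin genes tested, and the medians lay between -0.08 and 0.005. The vitellogenin genes summed to 59500 to 65100 CPM in lin-32 RNAi, 61800 to 63100 CPM in hlh-2 RNAi and 65600 to 66800 CPM in L4440. In 3 of the 6 (50%, against 15.4% of all genes) every lin-32 RNAi library was below both controls. The germline genes summed to 5980 to 6350 CPM in lin-32 RNAi, 6170 to 6300 CPM in hlh-2 RNAi and 6380 to 6450 CPM in L4440. In 14 of the 40 (against 15.4% of all genes) every lin-32 RNAi library was below both controls. Both lists were thus slightly lower in summed level in lin-32 RNAi, and the part of this in the calls was not tested. Of 40 tested embryonic cell fate genes, 33 stood below 0 (against 49.4% of all genes) with a median of -0.093, and none passed. Their summed level was 1070 to 1120 CPM in lin-32 RNAi and 1130 to 1170 CPM in L4440. None of 46 tested genes of the RNA interference machinery passed (median -0.03). In all, 26 of the 55 lists with a tested member held at least 1 called gene, and 29 held none.

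Set directly against the libraries labelled hlh-2 RNAi, which received another insert in the same plasmid, the libraries labelled lin-32 RNAi differed in 58 genes (0.406%), 42 lower (0.294%) and 16 higher (0.112%). Of the 76 genes that fell against L4440, 31 were also lower than in hlh-2 RNAi, and of the 30 that rose, 10 were also higher. Both comparisons use the same lin-32 RNAi libraries. With a block for the replicate number, which the data pair between these 6 libraries, the direct comparison gave 132 genes, 81 lower and 51 higher, and the 31 became 41. Without the block it gave 93 genes when hlh-2 RNAi replicate 1 was left out, 28 without hlh-2 RNAi replicate 2, 31 without hlh-2 RNAi replicate 3 and 25 without lin-32 RNAi replicate 2.

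Of the neuronal genes that fell against L4440, all but ins-2 (-1.46, log2 difference, edgeR adjusted p = 0.0619) were also lower than in hlh-2 RNAi. Levels of egl-46 were 1.22, 1.33 and 0.996 CPM in lin-32 RNAi, against 4.88, 5.57 and 6.24 CPM in hlh-2 RNAi, a log2 difference of -2.23 ± 0.18 (SE, edgeR adjusted p = 0.000225). For tbb-4 the libraries labelled hlh-2 RNAi had 2.05, 3.16 and 2.21 CPM and for fmi-1 6.6, 8.46 and 8.02 CPM, and the log2 differences were -2.33 ± 0.24 and -1.39 ± 0.13 (SE, edgeR adjusted p 0.000819 and 0.000543). The same held for arrd-1 (-1.86), ces-1 (-3.53), ztf-11 (-0.69) and hlh-2 (-1.19), as log2 differences of lin-32 RNAi minus hlh-2 RNAi with edgeR adjusted p 0.00036 to 0.00171. The lin-32 transcript, which had not passed against L4440, was lower than in hlh-2 RNAi (log2 difference -1.71, edgeR adjusted p = 0.00666). Part of that difference lies in its levels in hlh-2 RNAi, which were above those in L4440. The call of lin-32 was lost without lin-32 RNAi replicate 2 (edgeR adjusted p = 0.053). Also lower were unc-42 (-1.39, edgeR adjusted p = 0.0242), syd-9 (-0.84, edgeR adjusted p = 0.0115) and magu-3 (-1.03, edgeR adjusted p = 0.0461). The call of syd-9 was lost without hlh-2 RNAi replicate 2 or lin-32 RNAi replicate 2, that of unc-42 without either of these or hlh-2 RNAi replicate 3 or lin-32 RNAi replicate 1, and that of magu-3 without any 1 of these libraries or lin-32 RNAi replicate 3. Both ast-1 (-1.30, edgeR adjusted p = 0.0219) and zag-1 (-0.99, edgeR adjusted p = 0.0403) passed here, having missed the threshold against L4440. Their calls were lost without hlh-2 RNAi replicate 2 or 3 or lin-32 RNAi replicate 1 or 3, that of ast-1 also without lin-32 RNAi replicate 2, and that of zag-1 also without either L4440 replicate (edgeR adjusted p 0.065 to 0.18). Among the genes that were higher, sec-61.B (1.06 ± 0.087), rla-1 (0.75 ± 0.096) and C42D4.3 (3.4 ± 0.36, log2 differences and SE) exceeded hlh-2 RNAi with edgeR adjusted p 0.000225, 0.00416 and 0.000819.

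Apart from the mitochondrial genes mai-2 and Y82E9BR.3, none of the metabolic, digestive and detoxifying genes named above passed the direct test between the 2 RNAi groups. Those 2 were higher in lin-32 RNAi (log2 differences 0.75 and 0.68, edgeR adjusted p 0.0142 and 0.0115). Both calls were lost without lin-32 RNAi replicate 2, and that of mai-2 also without hlh-2 RNAi replicate 3. The level of argk-1 was 30.2, 33.2 and 35.3 CPM in lin-32 RNAi and 39.6, 38.6 and 37.9 CPM in hlh-2 RNAi, with no overlap but an edgeR adjusted p of 0.116 for a log2 difference of -0.23 ± 0.054 (SE). For cpr-4 the difference was 0.15 ± 0.078, for ugt-63 0.30 ± 0.069, for cth-1 -0.076 ± 0.049 and for asp-14 0.028 ± 0.096 (log2, SE), none of which passed. Against L4440, whose 2 libraries both comparisons share, argk-1 stood at -1.10 ± 0.059 in lin-32 RNAi and -0.86 ± 0.058 in hlh-2 RNAi, and cpr-4 at 0.86 ± 0.092 in lin-32 RNAi and 0.72 ± 0.091 in hlh-2 RNAi (log2 fold change and SE). For lys-7 the direct difference of -0.27 ± 0.16 (log2, SE) had an edgeR adjusted p of 0.734 without and of 0.0092 with the replicate block. The block also brought past the threshold the lower values in lin-32 RNAi of skr-7 (edgeR adjusted p = 0.043), skr-8 (edgeR adjusted p = 0.028), ins-2 (edgeR adjusted p = 0.04), btb-8 (edgeR adjusted p = 0.012), dpy-5 (edgeR adjusted p = 0.029), rol-8 (edgeR adjusted p = 0.048) and sqt-2 (edgeR adjusted p = 0.029), and the higher value of tts-1 (edgeR adjusted p = 0.048).

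Among the collagens, sqt-1 had 0.660, 0.596 and 0.614 CPM and col-17 had 0.759, 0.805 and 1.17 CPM in hlh-2 RNAi, between lin-32 RNAi and L4440. The log2 differences of lin-32 RNAi minus hlh-2 RNAi were -3.45 ± 0.54 and -2.58 ± 0.37 (SE, edgeR adjusted p 0.0144 and 0.00969). Those of sqt-1 and col-17 were called in the direct test, but sqt-1 not without hlh-2 RNAi replicate 2 or lin-32 RNAi replicate 2, and col-17 not without lin-32 RNAi replicate 2. Both clec-209 IDs were higher in lin-32 RNAi than in hlh-2 RNAi, at log2 differences of 0.20 ± 0.035 and 0.23 ± 0.032 (SE, edgeR adjusted p 0.0268 and 0.00731), while lower than in L4440. The call of 1 of the IDs was lost on leaving out any 1 of the hlh-2 RNAi replicates or lin-32 RNAi replicate 2 or 3 (edgeR adjusted p 0.07 to 0.12).

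**Figure D5:**
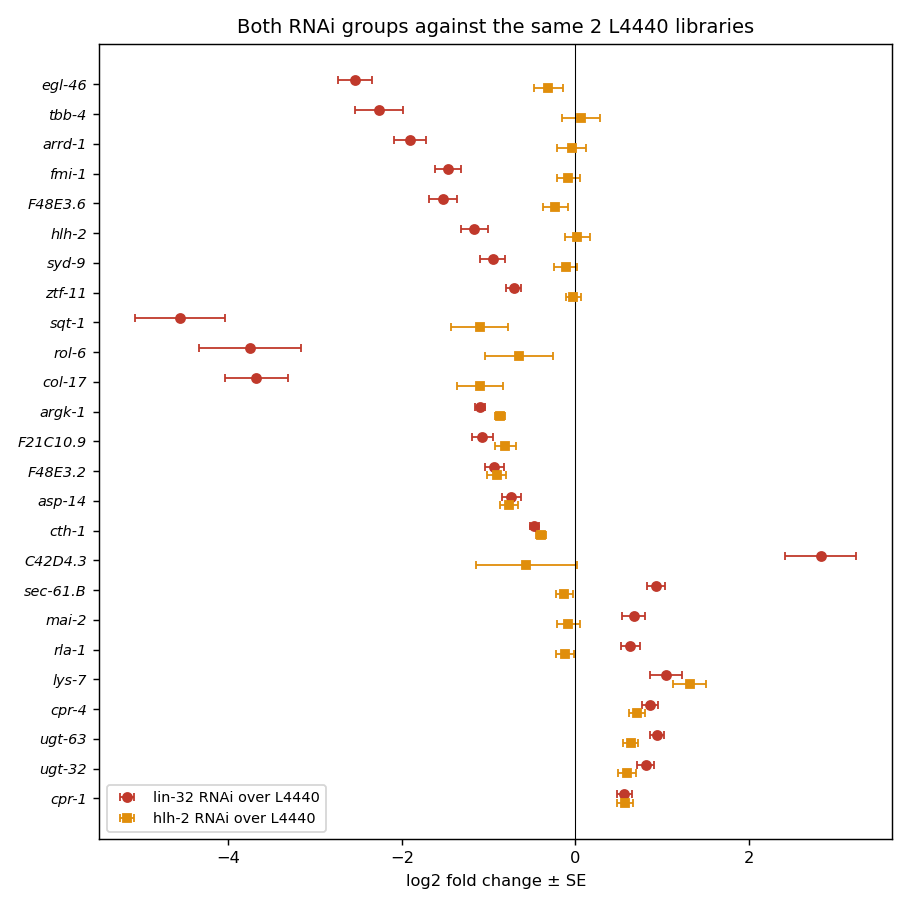
For 25 genes the log2 fold change over L4440 is drawn with its SE for lin-32 RNAi (circles) and hlh-2 RNAi (squares), both against the same 2 L4440 libraries. The circles of egl-46, tbb-4, arrd-1 and fmi-1 lie at -2.54 to -1.47 beside squares within 0.31 of 0, whereas argk-1, cth-1 and cpr-4 have both symbols on the same side of 0.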

How the data were processed

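RNA was sequenced from whole N2 nematodes in 8 libraries of 3 groups. Per the labels' protocols, QIAzol was used to extract total RNA and the unstranded TruSeq RNA v2 kit to prepare libraries. Per the submitters' processing notes, the authors used featureCounts 1.4.6-p4, TopHat2 2.1.0 and bcl2fastq 1.8.4 on the build WBcel235, and they deposited unnormalised integer read counts for each WormBase gene ID. Strand, multi-mapping and annotation settings of the counting are unknown here.

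Symbols matched 43693 of the 46748 IDs and coordinates (Ensembl release 115, WBcel235) 46449. Tests used edgeR 4.0.16 under R 4.3.3, with filterByExpr by group, TMM scaling and a quasi-likelihood fit of all 8 libraries whose only term was the group, so the 2 controls share the spread of the other groups (5 residual degrees of freedom, common dispersion 0.0027, biological coefficient of variation 5.19%). The contrasts lin-32 RNAi minus L4440 and lin-32 RNAi minus hlh-2 RNAi were adjusted by Benjamini-Hochberg over all 14272 genes with a threshold of 0.05. SEs come from the F statistic. Between replicates, the chi-square divided by its degrees of freedom was 5.6 to 16.0 for genes of 20 counts or more, so no library repeats another. The steps were tested on simulated counts.

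Deviations from group means, on log2 CPM with a pseudocount of 0.5, correlated at 0.374, 0.224 and 0.249 between lin-32 RNAi and hlh-2 RNAi libraries of equal number. Between those of unequal number they correlated at -0.263 to 0.033. The reported fit and its p-values did not use this pairing by number. Only the alternative with a replicate block did, and that block also covered the L4440 libraries. The labels state no shared batch, and the pairing rests on the data alone.

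Named genes are the targets, the 10 with the largest change (mean of at least 1 CPM in the higher group) and the 10 with the smallest p in each direction, and up to 4 called members of each of 56 lists, or 2 members where none was called. Members, lists and rule were chosen with earlier results of these data known, so lists are described by counts and medians without a set test. Alternatives were size factors of DESeq2 1.42.0, library size alone, no filter, a filter of 1 CPM in 2 libraries, DESeq2, limma-voom (limma 3.58.1), only the 2 groups compared, a replicate block and leaving out each library.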

Additional observations from a re-analysis of the deposited data

Results flagged for a closer look

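Among the named genes, 24 differed by the direct test of lin-32 RNAi against hlh-2 RNAi libraries (edgeR adjusted p under 0.05), so their changes against the shared L4440 libraries were unequal. The values are log2 differences of lin-32 RNAi minus hlh-2 RNAi. Lower in lin-32 RNAi were 17 genes. Of these the regulators stood at -3.53 for ces-1, -2.23 for egl-46, -1.71 for lin-32, -1.39 for unc-42, -1.19 for hlh-2 and -0.84 for syd-9. The other neuronal genes stood at -2.33 for tbb-4 and -1.39 for fmi-1, the collagens at -3.45 for sqt-1, -3.10 for rol-6 and -2.58 for col-17, and the F-box genes at -2.31 for fbxb-65 and -1.29 for fbxb-42. The difference was -1.86 for arrd-1, -1.30 for F48E3.6, -2.64 for the pseudogene WBGene00050903 and -0.24 for the myosin gene myo-3. Higher in lin-32 RNAi were 7, with 3.4 for C42D4.3, 2.16 for R02E4.3, 1.06 for sec-61.B, 0.75 for rla-1, 0.39 for col-122, and 0.20 and 0.23 for the clec-209 IDs WBGene00018910 and WBGene00021224. With each library left out in turn, 11 of the 24 stayed past the threshold throughout and 13 did not. The call of myo-3 was lost in all 8 cases and that of rol-6 in 7, all but the one without lin-32 RNAi replicate 1 (edgeR adjusted p 0.05 to 0.21). Those of fbxb-65 and fbxb-42 were both lost without hlh-2 RNAi replicate 3 or lin-32 RNAi replicate 2, that of fbxb-65 also without lin-32 RNAi replicate 3, and that of fbxb-42 also without hlh-2 RNAi replicate 2 or lin-32 RNAi replicate 1 (edgeR adjusted p 0.065 to 0.12). R02E4.3 lost its call without hlh-2 RNAi replicate 2 or 3 or lin-32 RNAi replicate 1 or 2 (edgeR adjusted p 0.06 to 0.12), col-122 without hlh-2 RNAi replicate 2 or 3 or lin-32 RNAi replicate 3 (edgeR adjusted p 0.055 to 0.062), and WBGene00050903 without lin-32 RNAi replicate 2 (edgeR adjusted p = 0.058).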

How the results depend on the processing

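Against L4440 the count of 106 genes (76 lower, 30 higher) was the same with the size factors of DESeq2. It was 610 (335 lower, 275 higher) with no filter, 177 (124 lower, 53 higher) with DESeq2, 109 with library size alone, 81 with the filter of 1 CPM, 86 with limma-voom and 121 with only the 2 groups compared. With a replicate block it was 350 (195 lower, 155 higher). The groups lin-32 RNAi and L4440 share only 2 numbers, and their deviations at equal number correlated at -0.082 and -0.145. Deviations of 2 controls mirror each other, so these values cannot tell whether libraries of equal number share a batch. Leaving out 1 library gave 17 to 157 genes (14 to 106 lower, 3 to 51 higher). Of the 106 calls, 14 (11 lower, 3 higher) held with each library left out, 34 held without L4440 replicate 1, 17 without replicate 2, and no sign changed. Against hlh-2 RNAi the count of 58 (42 lower, 16 higher) became 342 (194 lower, 148 higher) with no filter, 91 (31 higher) with DESeq2 and 132 (81 lower, 51 higher) with the replicate block, and 25 to 93 (17 to 74 lower, 8 to 22 higher) on leaving out 1 library. The other settings gave 45 to 63. For the list medians, 163 of the recomputed values moved by more than the spread and 717 did not, and for the named genes 161 values missed the threshold that was passed in the reported fit and 64 passed newly. With 2 controls, few counts per scarce gene and labels that the hlh-2 transcript goes against, calls under 2 CPM and those lost without a single library carry the least precision.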

Other observations

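By chromosome, beside 0.533% lower and 0.21% higher over all tested genes, 7 of 2264 tested genes fell (0.309%) and 5 rose (0.221%) on chromosome I, and 20 of 2492 fell (0.803%) and 1 rose (0.0401%) on chromosome II. On chromosome III 5 of 2232 fell (0.224%) and 4 rose (0.179%), and on chromosome IV 9 of 2306 fell (0.39%) and 8 rose (0.347%). On chromosome V 24 of 2752 fell (0.872%) and 9 rose (0.327%), and on chromosome X 10 of 2112 fell (0.473%) and 3 rose (0.142%). None of 14 mitochondrial genes passed in either direction, and the differences between chromosomes were not tested. By class, 69 of 13490 protein-coding genes fell and 29 rose, 5 of 540 pseudogenes fell and 1 of 36 lincRNAs fell.

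On chromosome V (WBcel235) the genes beside argk-1 were lower as well, named after their values were seen. On the plus strand, cth-1 (16100680 to 16102750) and argk-1 (16103894 to 16105952) are neighbours, and F22B8.7 (16094584 to 16097320) and the pseudogene WBGene00009047 (16086572 to 16088217) lie before them. In lin-32 RNAi against L4440 the log2 fold changes were -1.10 for argk-1, -0.47 for cth-1, -0.31 for F22B8.7 and -0.75 for WBGene00009047, all past the test (edgeR adjusted p 2.68e-06 to 0.0163). The chemoreceptor gene str-7 between them, on the minus strand, stood at -0.62 ± 0.18 (SE, edgeR adjusted p = 0.157). The next tested genes outside, srj-29 and skr-3, stood at -0.43 and 0.077 and did not pass. In hlh-2 RNAi against the same L4440 libraries the values were -0.86 for argk-1, -0.40 for cth-1, -0.32 for F22B8.7, -0.61 for WBGene00009047 and -0.45 for str-7.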
